A study of Glycine max with 4 samples.

Results

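E1 is the maturity locus of soybean (Glycine max) with the strongest known effect on flowering time, and E1La and E1Lb are its 2 homologues. The 3 genes were taken by identifier from a table of 56044 genes: E1 is Glyma.06G207800 on chromosome 6, and E1La (Glyma.04G156400) and E1Lb (Glyma.04G143300) are both on chromosome 4, as the digits before the G give it. RNA was sequenced from shoot tips of 5 cm, immature trifoliate leaves included, of 4 greenhouse plants of cultivar Thorne that were 1 month old. The plants form groups of 2. Tagged 1 and tagged 2 were transgenic and carried an mPing-based activation tag, mmPing20F, at chromosome 8 position 2785626. Neither of the other plants had the insertion: untagged 1 was transgenic, with the transposase construct, and untagged 2 was an untransformed plant. The design text and the labels spell the name of untagged 1 differently, by 1 digit, and it was taken as the same plant. Each library is 1 plant, so the transgenic untagged state and the untransformed state each rest on 1 plant. The promoter of the transposase construct, the day length, the hour of sampling and the E1 allele of Thorne are given in no source used here.

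In soybean, E1 encodes a plant-specific nuclear protein with a B3-like domain that delays flowering in long days. It lowers the expression of FLOWERING LOCUS T (FT) genes, among them FT2a and FT5a, whose products move from the leaf to the shoot tip and start flowering. The phytochromes encoded by the maturity loci E3 and E4 keep E1 active in light, and the evening complex of the circadian clock, which includes the product of the J locus, represses it. E1La and E1Lb are close homologues that also delay flowering. RefSeq's table for the Glycine_max_v4.0 assembly lists E1, E1La and E1Lb as symbols, and for E1 the allele names e1-as, e1-fs and e1-re, but it pairs none of the 56044 identifiers with a name.

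All 3 genes were expressed at a low level, and each was highest in the untransformed plant and lowest in the transgenic untagged plant. E1, the major repressor of the family, had 14.2 and 11.9 normalized counts in tagged 1 and tagged 2, 2.12 in untagged 1 and 24.7 in the untransformed plant. A normalized count is the number of reads divided by the size factor of its library; the raw reads were 21, 10, 2 and 21. The tagged plants lay between the untagged plants, so the groups overlapped. E1La stood at 5.39 and 7.15 normalized counts in the tagged plants, at 0 in untagged 1 and at 59.9 in the untransformed plant, from 8, 6, 0 and 51 reads. Its level in the untransformed plant was far above the other libraries, whose 95% Poisson intervals ended at 10.6 and 15.6 in the tagged plants, against a lower bound of 44.6. E1Lb had 1.35 and 5.96 normalized counts in the tagged plants, 0 in untagged 1 and 47.0 in the untransformed plant, from 2, 5, 0 and 40 reads. It too stood apart in the untransformed plant, with an interval of 33.6 to 64.0 against upper bounds of 4.87 and 13.9 in the tagged plants. These intervals cover counting error only, not the spread between plants. A count of 0 in untagged 1 allows up to 3.18 normalized counts (3 reads).

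**Figure D1:**
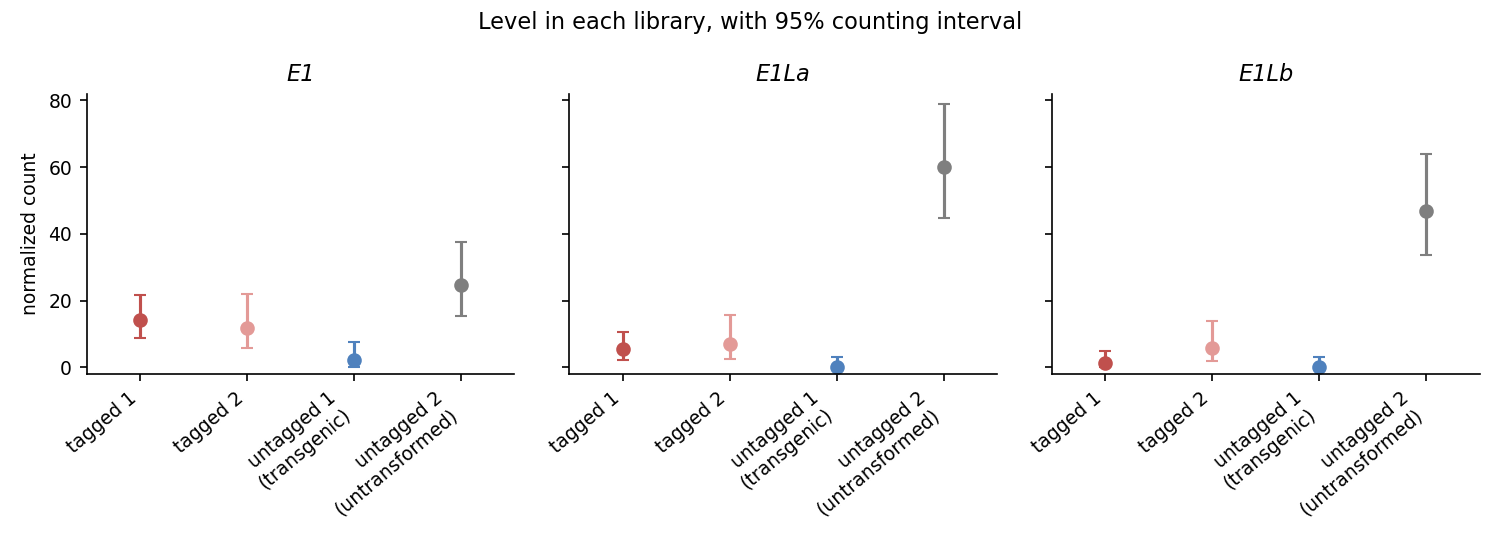
Normalized count (y axis) of E1, E1La and E1Lb in each of the 4 libraries (x axis); points are single plants and bars are 95% Poisson counting intervals, or end at the floor of 3 reads where the count is 0. E1La and E1Lb stand at 59.9 and 47.0 in the untransformed plant and at or below 7.15 elsewhere, while the E1 interval of the untransformed plant overlaps those of the tagged plants.

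Highest in the untransformed and lowest in the transgenic untagged plant was the order of 18.1% of the 40884 genes tested for transgenic status, so this order by itself is not particular to the family. Within it, some neighbouring levels of E1 did not differ beyond counting error. The untransformed plant had 1.74 times the E1 level of tagged 1 (95% interval 0.905 to 3.35), and tagged 1 had 1.19 times that of tagged 2 (0.535 to 2.83). Tagged 2 was 5.62-fold above untagged 1, with an interval of 1.20 to 52.7 that rests on 10 and 2 reads. For E1La the tagged plants did not differ beyond counting error either (ratio 0.754, 0.229 to 2.64), and the untransformed plant was 11.1-fold above tagged 1 (5.23 to 27.1) and 8.37-fold above tagged 2 (3.59 to 23.9). E1Lb was 34.8-fold higher in the untransformed plant than in tagged 1 (9.03 to 297) and 7.88-fold higher than in tagged 2 (3.11 to 25.6). Against untagged 1, where no read was counted, a floor of 3 reads was taken. The untransformed plant was 18.8-fold above it for E1La and 14.8-fold for E1Lb, leaving out the counting error of its own reads. E1 exceeded between 23.6% and 36.6% of all listed genes by normalized count in its 4 libraries. E1La exceeded 43.7% and E1Lb 41.7% in the untransformed plant, and at most 29.3% in any other.

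Library totals ran from 27900266 to 49210060 reads. The untransformed library stood apart from the others across the transcriptome: it differed by over 2-fold from each of them at 34.4% to 37.5% of the genes that averaged 50 or more normalized counts over the pair, against 1.58% to 3.23% among the 3 transgenic libraries. As a check of the tissue, lists of marker genes were summed; their identifiers were assigned from general knowledge of soybean, because the files do not name them. The 4 leghemoglobin genes that mark nodules had 1 read in all. Leaf primordium genes of the JAGGED type were detected in every library, at 23.5 to 79.6 normalized counts summed over 2 genes. Other lists moved with the untransformed library. The 4 SPL9 genes of shoot phase, summed, were at 891 normalized counts there and at 2249 to 2282 elsewhere. Of these genes, 4 of 4 were lower there in edgeR's test and 3 of 4 in DESeq2. Over all genes tested, 23.3% were lower there in edgeR, and 8811 of 40884 were lower in DESeq2. Seed glycinin genes had 82 reads there and 0 to 1 in the other libraries, with 1 of the 5 genes at 0 in all 4. In bulk RNA, fewer cells of a type and less RNA per cell cannot be told apart. The part of these differences in the levels of the E1 family was not tested.

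The study's own comparison asked what differs between plants with and without the tag. For E1 the tagged plants were at 13.04 ± 1.58 normalized counts and the untagged plants at 13.4 ± 15.9 (SD, n = 2 each). The wide spread of the untagged group comes from its 2 plants lying on opposite sides of the tagged pair. E1La had 6.27 ± 1.24 with the tag and 29.9 ± 42.3 without it, and E1Lb 3.65 ± 3.26 with and 23.5 ± 33.2 without. In edgeR's quasi-likelihood test the E1 estimate was -0.02 ± 1.14 (SE) on the log2 scale, tagged over untagged, at an adjusted p of 0.997. This size of error leaves room for a change of over 2-fold in either direction. The other homologues were removed by the filter on low counts. Of the 1 member tested, 0 passed an adjusted p of 0.05, 0 had an unadjusted p under 0.05 and 0 passed in DESeq2. Of all 38824 genes, 0% passed in edgeR, and in DESeq2 0.0103% were higher and 0.0386% lower in tagged plants. Without the low-count filter the homologues had edgeR log2 fold changes of -2.20 ± 1.88 for E1La and -2.69 ± 2.04 for E1Lb, both with an adjusted p of 0.943. Leaving out the untransformed plant turned the E1 value to 2.58, and leaving out untagged 1 gave -0.87 for E1, -3.24 for E1La and -3.81 for E1Lb.

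E1La and E1Lb were higher in the untransformed plant than in the 3 transgenic plants, and E1 did not pass the test. Both homologues were kept by the low-count filter only through the untransformed library, as were 1313 of the 40884 genes tested, so their direction was set by the filter and their calls are given as a description of that plant. E1La was at 59.9 normalized counts against 4.18 ± 3.73 in transgenic plants (SD, n = 3), a log2 difference of 3.76 ± 0.88 (edgeR, adjusted p = 0.0122). E1Lb was at 47.0 against 2.44 ± 3.13, a log2 difference of 4.32 ± 0.95 (edgeR, adjusted p = 0.00999). E1 was at 24.7 against 9.40 ± 6.40, and its log2 difference of 1.32 ± 0.86 had an adjusted p of 0.241 in edgeR. These calls stand beside a background in which 25.8% of 40884 genes were higher in the untransformed plant by the same rule and 23.3% were lower. By size, the log2 fold changes of E1La and E1Lb lay above those of 97.2% and 98.0% of genes tested, and that of E1 above 85.5%. For the homologues a high rank is partly built in by the filter, so it is a description and no separate evidence. This comparison has only 1 untransformed library, taken to vary as the transgenic ones do, so the plant and its transgenic status cannot be told apart. Leaving out any 1 transgenic library gave log2 fold changes from 3.24 to 4.18 for E1La and from 3.81 to 5.64 for E1Lb. The highest value of E1Lb was that without tagged 2. Each of these fits keeps the same untransformed library, so they are no separate support for the calls.

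**Figure D2:**
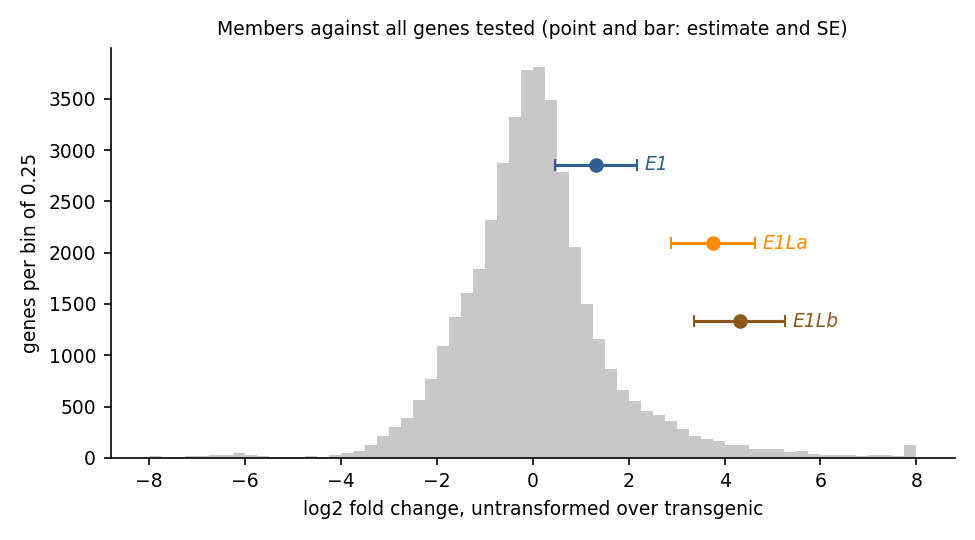
Histogram of log2 fold changes, untransformed over transgenic plants (x axis, end bins include values beyond 8), for 40884 genes (y axis, genes per bin of 0.25), with the estimate and SE of each member at an arbitrary height. E1La at 3.76 and E1Lb at 4.32 lie in the right tail, and E1 at 1.32 lies nearer the bulk. Both homologues were kept by the low-count filter only through the untransformed library, so their side of the histogram was set by the filter.

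The make-up of the family's reads also differed between plants. Of the 112 reads that the 3 genes had in the untransformed plant, 18.8% were from E1 (95% Clopper-Pearson interval 12 to 27.2), 45.5% from E1La and 35.7% from E1Lb. In tagged 1, E1 held 67.7% of 31 reads (48.6 to 83.3), and in tagged 2 it held 47.6% of 21 reads (25.7 to 70.2). The share of E1 was therefore larger in both tagged plants than in the untransformed plant. Its intervals overlapped narrowly between tagged 2 and the untransformed plant. Untagged 1 had 2 reads in all, both from E1, too few for a share. Between the homologues themselves, E1La took 56.0% of their 91 reads in the untransformed plant (45.2 to 66.4), 54.5% of 11 in tagged 2 (23.4 to 83.3) and 80% of 10 in tagged 1 (44.4 to 97.5), which do not differ beyond counting error. Shares are of reads, not scaled by transcript length, and only their change between libraries is read here. The family is closely related in sequence and no source used here states how reads that match several genes were counted, so the split between E1La and E1Lb is less certain than their sum. That sum with E1 was 20.9, 25.0 and 2.12 normalized counts in tagged 1, tagged 2 and untagged 1, and 132 in the untransformed plant.

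**Figure D3:**
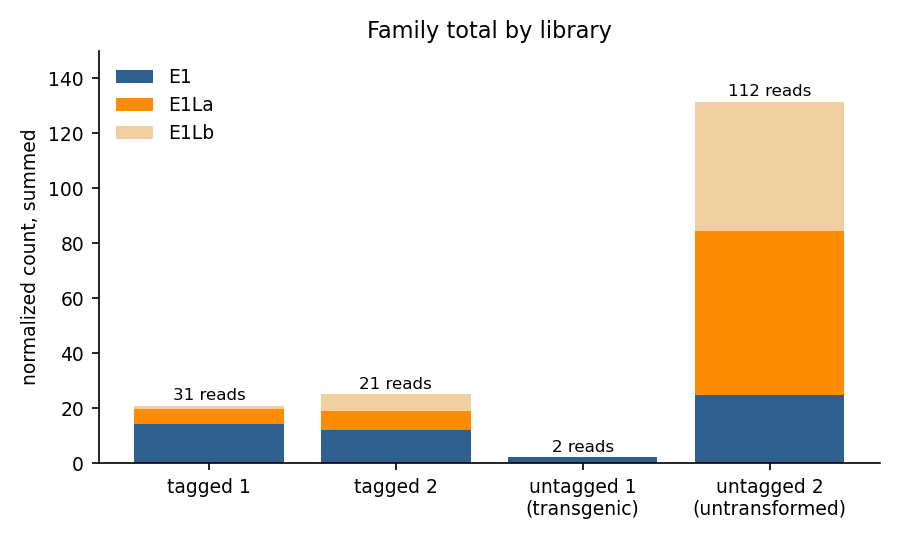
Normalized counts of E1, E1La and E1Lb stacked (y axis) for each library (x axis), with the number of raw reads above each bar. The bar of the untransformed plant reaches 132 and consists mostly of E1La and E1Lb. E1 makes up a larger part of the bar in each tagged plant.

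Among the 3 transgenic plants, E1 and E1La had more reads in both tagged plants than in untagged 1, and the difference of E1, the only member tested, did not pass over all genes. E1 was 6.67-fold higher in tagged 1 (95% counting interval 1.63 to 58.7) and 5.62-fold higher in tagged 2. Its log2 fold change was 2.58 ± 1.05, with an unadjusted p of 0.0458 and an adjusted p of 0.522 from edgeR. E1La stood 1.69-fold above the floor of 3 reads of untagged 1 in tagged 1, and 2.25-fold above it in tagged 2. Its counting intervals in these plants began at 2.33 and 2.63 normalized counts, under the 3.18 that a count of 0 allows. Overlap of such separate intervals does not decide whether E1La differed there, and no ratio interval was computed against a count of 0. E1Lb stood 1.87-fold above that floor in tagged 2, where its interval began at 1.94, and its 2 reads in tagged 1 are under the floor. The homologues were removed by the low-count filter here. Without that filter their edgeR log2 fold changes were 5.77 ± 2.63 for E1La and 4.87 ± 3.32 for E1Lb. Untagged 1 had no read of either, so these values depend on edgeR's prior count. Of the 1 member tested, 0 passed at an adjusted p of 0.05, 1 had an unadjusted p under 0.05 in edgeR and 0 passed in DESeq2, where its adjusted p was not given. Over all 39528 genes, edgeR called 0.00506% higher and 0.00506% lower in tagged plants, and DESeq2 0.541% and 0.0557%. With 1 untagged transgenic plant, a difference that belongs to that plant and one that belongs to the tag cannot be told apart. The 4 floral meristem genes of the AP1 type, summed, were highest in untagged 1, at 63.7 normalized counts against 18.2 and 10.7 in the tagged plants and 7.05 in the untransformed plant. Of the 3 of them tested among transgenic plants, 0 passed in edgeR (lowest adjusted p 0.393) and 0 in DESeq2, and 2 and 0 had an unadjusted p under 0.05. The part of this difference in the low E1 level of untagged 1 was not tested.

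Genes that act around E1 were described as a list of 45 identifiers, assigned to gene families from general knowledge of soybean, since no table at hand names them; they are given by family and not by identifier. Of these, 39 had at least 1 read and 34 could be tested between the untransformed and the transgenic plants, 5 of them, all FT genes, kept by the low-count filter only through the untransformed library. Of the other 29, 17 were higher and 3 lower in the untransformed plant at an edgeR adjusted p of 0.05, and 15 and 3 in DESeq2. Over all genes tested with edgeR the shares were 25.8% and 23.3%. With DESeq2, 9633 of 40884 genes tested were higher and 8811 lower. The median log2 fold change of the 29 was 0.79, against -0.03 over all genes tested. Without tagged 1, 15 of the 29 were higher and 0 lower. The list was drawn up with earlier results of these data known.

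Among the genes upstream of E1, the 6 phytochrome genes, which encode the red and far-red light receptors, were all higher in the untransformed plant. Their log2 fold changes ran from 1.05 to 1.86, and their summed level was 11399 normalized counts against 4068 to 4855 in transgenic plants. The evening complex genes, known to repress E1 in soybean, moved in different directions: 2 of 3 rose, with log2 fold changes of 0.75 and 2.36, and 1 fell by 0.80 on the log2 scale. All 4 genes of the LHY type, morning transcription factors of the clock, rose, by 2.73 to 5.76 on the log2 scale, and summed to 70741 normalized counts in the untransformed plant and to 5668 to 6404 elsewhere. Both PRR3 genes, clock repressors that act on LHY, fell by 0.63 and 0.52; under RLE scaling the second of these had an edgeR adjusted p of 0.056. Over all genes tested in edgeR, 25.8% were higher and 23.3% lower in the untransformed plant. The hour at which each plant was sampled is not given, and the part of the clock genes in the E1 family levels was not tested.

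In the parallel branch, 1 of 2 tested GIGANTEA genes rose, with a log2 fold change of 0.79, and 1 of 2 FKF1 genes rose, with 0.44 (edgeR, adjusted p = 0.0317; DESeq2, adjusted p = 0.0549). The share of all genes tested that were higher in the untransformed plant was 25.8% in edgeR. GIGANTEA and FKF1 genes encode partners that stabilise CONSTANS-type activators in Arabidopsis. Of the 4 CONSTANS-like genes, 3 rose, by 1.47, 4.29 and 4.38, the first of them without passing in DESeq2 (adjusted p = 0.12), and the other stood at 0.74 on that scale (edgeR, adjusted p = 0.421).

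The listed FT genes include known targets of the family. The list does not separate those that E1 lowers from the rest. Of 12, 5 were kept by the low-count filter, through the untransformed library alone, so that their direction was fixed by the filter and their reads are given as a description. Together the 12 had 11, 3 and 4 reads in tagged 1, tagged 2 and untagged 1 and 525 in the untransformed plant. The most abundant had 276 normalized counts in the untransformed plant, 0 in both tagged plants and 2.12 in untagged 1. Another had 214 there and no read in any transgenic plant, which is 59.8-fold above the floor of 3 reads in tagged 2, the highest of the floors. A further 2 genes of 24.7 and 56.4 normalized counts in the untransformed plant also had no read elsewhere and were 6.90-fold and 15.8-fold above that floor. These folds leave out the counting error of the reads in the untransformed plant. The last of the 5 was at 43.5 against 6.74, 2.38 and 1.06. The other 7 had at most 1.19 normalized counts in any library, and 5 of them had no read at all. Both E1 homologues and these FT genes were at their highest in the same single library, which the filter had fixed in advance. That library was also the highest for 43.3% of the 40884 genes tested.

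**Figure D4:**
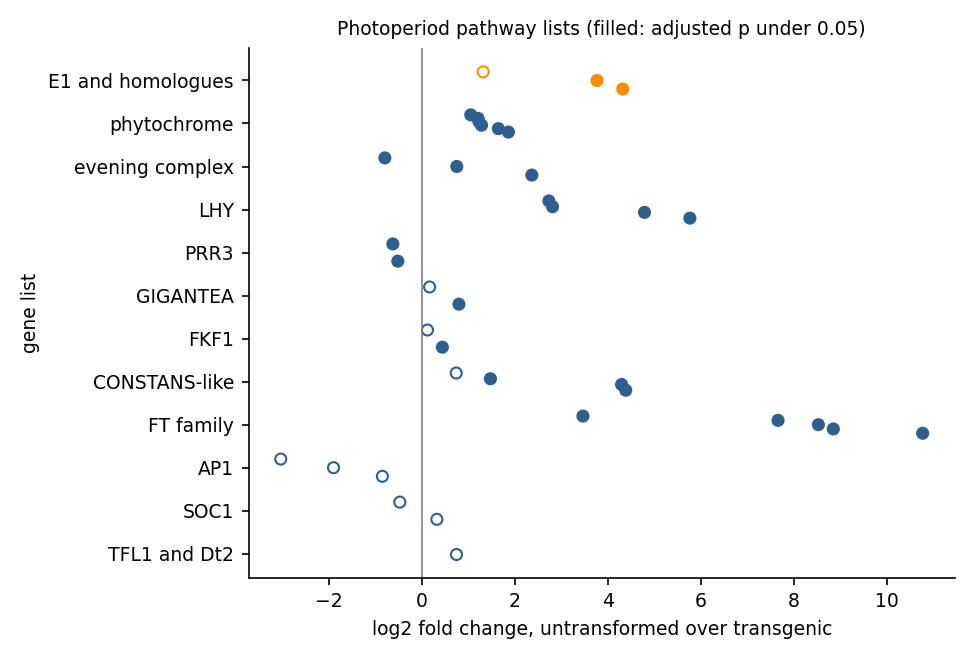
Log2 fold change, untransformed over transgenic plants (x axis), for E1 and its homologues and for the tested genes of each pathway list (y axis); each point is a gene, filled where the edgeR adjusted p is under 0.05. LHY, CONSTANS-like and FT family genes include values above 4, the phytochrome genes lie between 1.05 and 1.86, and the values of the FT genes without reads in transgenic plants depend on edgeR's prior count.

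Further downstream, 0 of 6 tested genes passed in edgeR or in DESeq2, and 1 had an unadjusted p under 0.05 in each. The 3 tested AP1 genes, which specify floral meristems, had log2 fold changes from -3.04 to -0.85, the 2 SOC1 genes, floral integrators, -0.48 and 0.32, and the only tested gene of the TFL1 and Dt2 list, which governs stem growth habit, 0.73. No gene of the whole list was called in the other comparisons. Between tagged and untagged plants, 0 of 26 tested passed in edgeR and 0 in DESeq2, and 0 and 6 had an unadjusted p under 0.05. Among the transgenic plants, 0 of 29 tested passed in either tool, DESeq2 giving no adjusted p for 6 of them, and 7 and 2 had an unadjusted p under 0.05.

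The genes next to the members by identifier number, 5 on each side, are given as a description, beside 25.8% of all genes tested that were higher and 23.3% that were lower. Around E1, 3 of 10 neighbours had no read, 0 of 5 tested were higher in the untransformed plant and 1 was lower, with log2 fold changes from -1.71 to 0.17. Around E1La, 3 of 8 tested were higher and 2 lower (-0.61 to 2.34), below the 3.76 of E1La itself. Around E1Lb, 5 of 10 had no read, and 1 of 3 tested was higher (-0.79 to 1.92, against 4.32). The number of neighbours was chosen after the data were seen.

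Likeness of pattern was measured as the Euclidean distance between centred profiles of log2(normalized count + 1) over the 4 libraries, among the 32967 genes that averaged 50 or more normalized counts. E1La and E1Lb were nearer to each other (1.11) than either was to E1 (2.22 and 2.62). The gene most like E1 was Glyma.15G062500, at 210, 163, 38.2 and 291 normalized counts in tagged 1, tagged 2, untagged 1 and the untransformed plant (distance 0.204, median over candidates 2.31). For E1La it was Glyma.06G261900, at 25.6, 27.4, 3.18 and 298 (0.351, median 4.21), and for E1Lb Glyma.18G297500, at 6.07, 28.6, 3.18 and 227 (0.491, median 4.18). These distances rest on 4 libraries and on few reads of the members, and the nearest of 32967 genes lies below the median by construction. They describe no shared function, and these genes have no name in the sources used here.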

How the data were processed

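Raw counts of reads per gene were deposited by the authors as whole numbers for 56044 genes in 4 libraries. A second deposited table holds these counts as a signal scaled by library size factors; undoing the scaling gave the counts within 0.01 reads for 100% of values. The submitters' processing notes name DESeq2, HTSeq 0.6.1, HISAT2 2.1.0 and CASAVA 1.8; for the build, annotation and strand setting, each was not given in the sources used here.

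The main test was edgeR 4.0.16's quasi-likelihood test (R 4.3.3) on the counts, with TMM scaling, edgeR's default low-count filter and Benjamini-Hochberg adjustment over all genes tested, at 0.05. It was run for tagged against untagged, untransformed against transgenic, and tagged against untagged among transgenic plants. SE is the absolute log2 fold change over the square root of F. Named were the 3 members and the gene most like each; the planned rule took 2 per member and named pathway genes, which was narrowed because no identifier could be paired with a name. Members and lists were chosen with earlier results of these data known. Labels do not say how the plants are related. The fits were tested on simulated data. Alternatives were DESeq2 1.42.0, RLE scaling, 2 other filters, the replicate block, library totals and leaving out each library. Intervals are exact at 95%, for counting error only. No sequence of these genes was used here.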

Additional observations from a re-analysis of the deposited data

How the results depend on the processing

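Between tagged and untagged plants, leaving out 1 library at a time gave 0 to 2 members past the threshold, 0 to 3 pathway genes higher and 0 to 21 lower; the upper ends came without untagged replicate 1, when the untransformed plant is the only control. The E1 log2 fold change of that comparison, -0.02, changed sign without the low-count filter (0.012), with the replicate block (0.55), without tagged replicate 2 (0.11) and without untagged replicate 2 (2.58); it ran from -0.87 to 2.58 over the left-out libraries and passed under none of these. The block changed no call; same-numbered libraries had a correlation of deviations of -0.05 over 38824 genes, so they were not treated as pairs. Between untransformed and transgenic plants, a minimum of 50 counts left 1 member past the threshold, because E1Lb, with 40 reads at most, was no longer tested. Leaving out 1 transgenic library gave 20 to 21 pathway genes higher, FT genes included, and 0 to 3 lower, with 0 lower without tagged replicate 1. Among the transgenic plants, leaving out a tagged library leaves 1 against 1 with no test, and the E1 log2 ratio was then 2.49 or 2.74. The other 67 member and list values, RLE scaling, DESeq2 and library totals among them, stayed within 1.5 times the reported count or within the counting interval. Counts of 0 to 51 reads per member and library limit every ratio. For the remaining changes the cause was not tested.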
